A study of Mus musculus with 2 samples.

Results

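Potassium channel genes were followed through the nuclei of the mouse ventral tegmental area (VTA), a midbrain region that holds dopamine neurons together with GABAergic and glutamatergic neurons and glia. The genes were taken by symbol: Kcn, letters and a closing number, which names pore-forming potassium channel subunits and many of their auxiliary subunits. Of the 32285 genes in the deposited matrices 92 matched, Kcnj10 and Kcnj16 were left out by name, and 77 of the remaining 90 had at least 50 UMIs (unique molecular identifiers, counted RNA molecules) in both libraries together. The members nearest that minimum were Kcns1 with 50 UMIs and Kcna3 with 51, and the nearest genes left out were Kcnmb3 with 39 and Kcnj8 with 37. The 77 members took 1.14% of all UMIs in the WT library and 1.41% in the CCI library.

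The study profiled 2 groups of adult mice, with 1 library each. WT stands for wild type, and CCI for mice with a chronic constriction injury of the left sciatic nerve, in which the nerve is loosely tied to model neuropathic pain, while the right nerve was exposed without a tie. The labels give no other genotype, allele or agent for either group, and they say neither how many animals each library pooled nor from which hemisphere the tissue came. With 1 library per group no difference between WT and CCI has a replicate check, so no test was made between them, and every interval given here is a 95% interval for counting error alone.

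The WT library held 14114 barcodes with a median of 975 UMIs, and the CCI library 13736 with a median of 3652. A total of 54 barcode sequences occurred in both. After filtering and doublet removal 12189 WT and 12825 CCI nuclei were kept and clustered without any Kcn gene. All class names below mean "like" that type by a fixed list of markers, and for each of the 11 named classes compared between libraries the summed level of its markers was at least 2.06 times that in the other nuclei of the same library. The unresolved neurons, also compared, have no markers of their own and join subclusters of unlike kinds, some given below. In the neurons named by Slc17a6, the vesicular glutamate transporter, 1 of 3 glutamatergic markers had no UMI in the WT library. Levels are CPM, the UMIs of a gene in a class scaled to a common class total. The libraries differed in ways that bear on every comparison between them: in each of the 12 classes compared, the CCI nuclei were deeper, and summed myelin and mitochondrially encoded transcripts had a lower CPM in CCI. Their part in the differences below was not tested.

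Potassium channels let potassium leave a cell or, for inward rectifiers, hold its resting potential, and so set how readily a neuron fires, how fast a spike ends and how a pause follows it. Voltage-gated channels (Kcna, Kcnb, Kcnc, Kcnd, Kcnq and Kcnh genes) open on depolarization, calcium-activated channels (Kcnma and Kcnn) respond to calcium entry, inward rectifiers (Kcnj) can be opened by G proteins, and tandem-pore channels (Kcnk) carry leak currents. Dopamine neurons are known for slow pacemaking, which calcium-activated and fast-inactivating channels shape, and for inhibition through G-protein-gated inward rectifiers at dopamine autoreceptors. Glia use potassium channels to take up potassium and to keep a negative resting potential.

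Of the members with enough counts, more were higher in neurons than in glia. A member was called higher in neurons when its level over all neurons was at least 2-fold that over glia (astrocytes, microglia and cells of the oligodendrocyte lineage) in both libraries, and 66 members had the 20 UMIs per library that this needed. Of these, 38 were higher in neurons, against 19.2% of all 15899 genes tested in the same way, and 4 were higher in glia, against 12.4% of all genes. The other 24 lay between. The 4 glial members were Kcna1, Kcnk13, Kcnip3 and Kcnk6. Of the inward rectifier genes, 5 of the 8 tested were higher in neurons, as were 5 of the 7 Kcnh genes tested and 5 of the 9 tandem-pore genes tested. Of the 3 Kcnd genes, which carry A-type current, only 1 was. The 11 members too sparse to test were Kcnj4, Kcna5, Kcnk7, Kcnmb1, Kcnv2, Kcnk5, Kcnj14, Kcnk18, Kcnh3, Kcna3 and Kcns1, each with 5 to 19 UMIs in kept WT nuclei.

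The class with the highest level of a member was the same in the WT and the CCI library for 46 of the 77 members, taken over the 11 named classes with at least 50 nuclei in each library. Among the 41 members with at least 200 WT UMIs it was the same for 30, and no such count was made over all genes. The libraries were therefore set side by side, and a member was called high in a class when its level was at least 2-fold that of all other kept nuclei in each library, with at least 20 UMIs in the class in each.

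**Figure D1:**
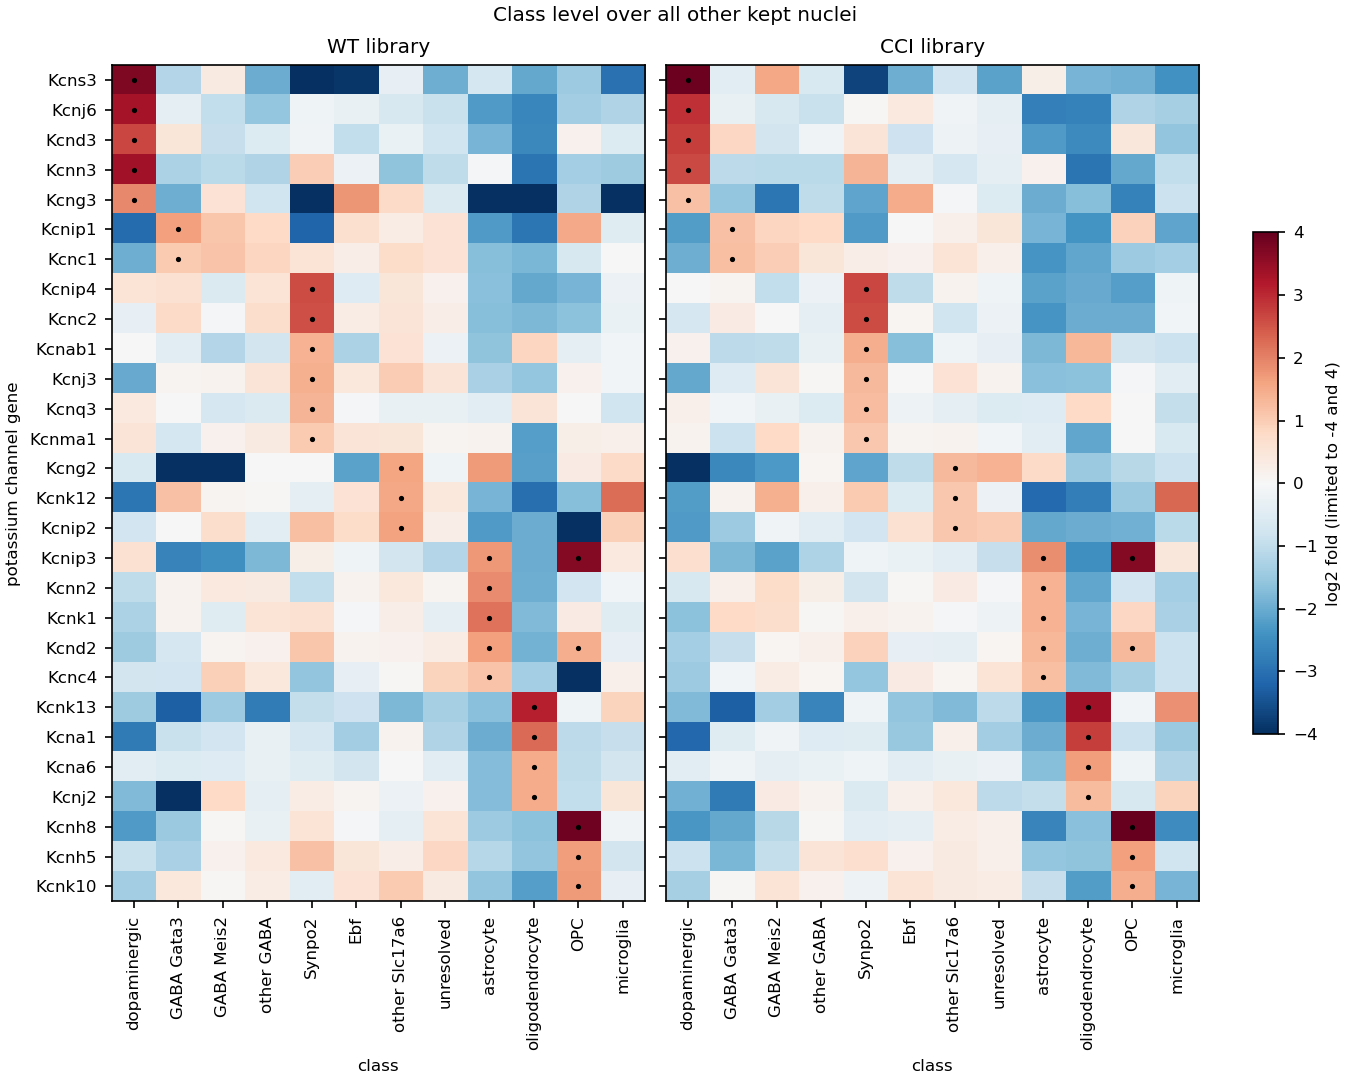
Level of members called high in at least 1 of 12 classes, as the log2 fold over all other kept nuclei of the WT library (left) and of the CCI library (right), in colour limited to -4 and 4. Dots mark the class and member pairs that passed 2-fold in both libraries. Each gene is listed under the first class, in column order, in which it was high, which by itself makes blocks. These include dopaminergic nuclei (Kcns3 to Kcng3), the Synpo2 type (Kcnip4 to Kcnma1), astrocytes, oligodendrocytes and oligodendrocyte precursors (OPC). Astrocytes and precursors share Kcnd2 and Kcnip3.

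Dopaminergic nuclei held 4 members above every other compared class. They numbered 843 in WT and 368 in CCI, and all 11 dopaminergic markers were higher in them than in the other nuclei of either library. Of 40 members with enough UMIs, 5 were high, namely Kcns3, Kcnj6, Kcnd3, Kcnn3 and Kcng3, against 4.73% of 9226 genes tested. The first 4 passed 4-fold in both libraries.

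Kcns3 encodes a modifier subunit that makes no channel alone and alters the currents of Kcnb channels. It stood at 181 CPM in WT dopaminergic nuclei (interval 163 to 201, 356 UMIs) and at 122 CPM in CCI (111 to 134, 440 UMIs), which was 13.3-fold and 15.2-fold the level in the other nuclei. Kcnj6 encodes a G-protein-gated inward rectifier subunit through which dopamine and GABA-B receptors inhibit these cells. Its level was 1079 CPM in WT (1033 to 1126) and 1028 CPM in CCI (995 to 1061), or 10.1-fold and 7.58-fold the rest. In the next of the compared classes by level, the Synpo2 type in WT (202 CPM) and the Ebf type in CCI (235 CPM), Kcnj6 was several times lower, and the intervals did not overlap.

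Kcnd3, an A-type channel gene whose product delays the next spike, was at 1269 CPM in WT (1219 to 1319) and 1413 CPM in CCI (1375 to 1453), 6.34-fold and 6.85-fold the rest. Kcnn3 encodes a small-conductance calcium-activated channel that contributes to the afterhyperpolarization. It was at 439 CPM in WT (410 to 469) and 457 CPM in CCI (435 to 480), 10.2-fold and 6.28-fold the rest. All 4 genes thus had their top level in dopaminergic nuclei of both libraries. Kcng3, another modifier subunit, rested on few molecules, with 27 UMIs at 13.7 CPM in WT and 38 UMIs at 10.5 CPM in CCI, and in the Ebf type it stood at 14.6 and 11.2 CPM, with intervals that overlapped those of dopaminergic nuclei.

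The CCI nuclei of this class fell into 2 subclusters that are compared further down, and the sizes of these folds depend on them. When subcluster 1, which both libraries share, was used alone, the smaller of the WT and CCI folds was 4.18 for Kcns3, 3.23 for Kcnj6, 4.27 for Kcnd3, 3.59 for Kcnn3 and 3.70 for Kcng3. With subcluster 15 as the CCI nuclei, Kcng3 was below 2-fold at 1.36 and the other 4 stayed above it.

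**Figure D2:**
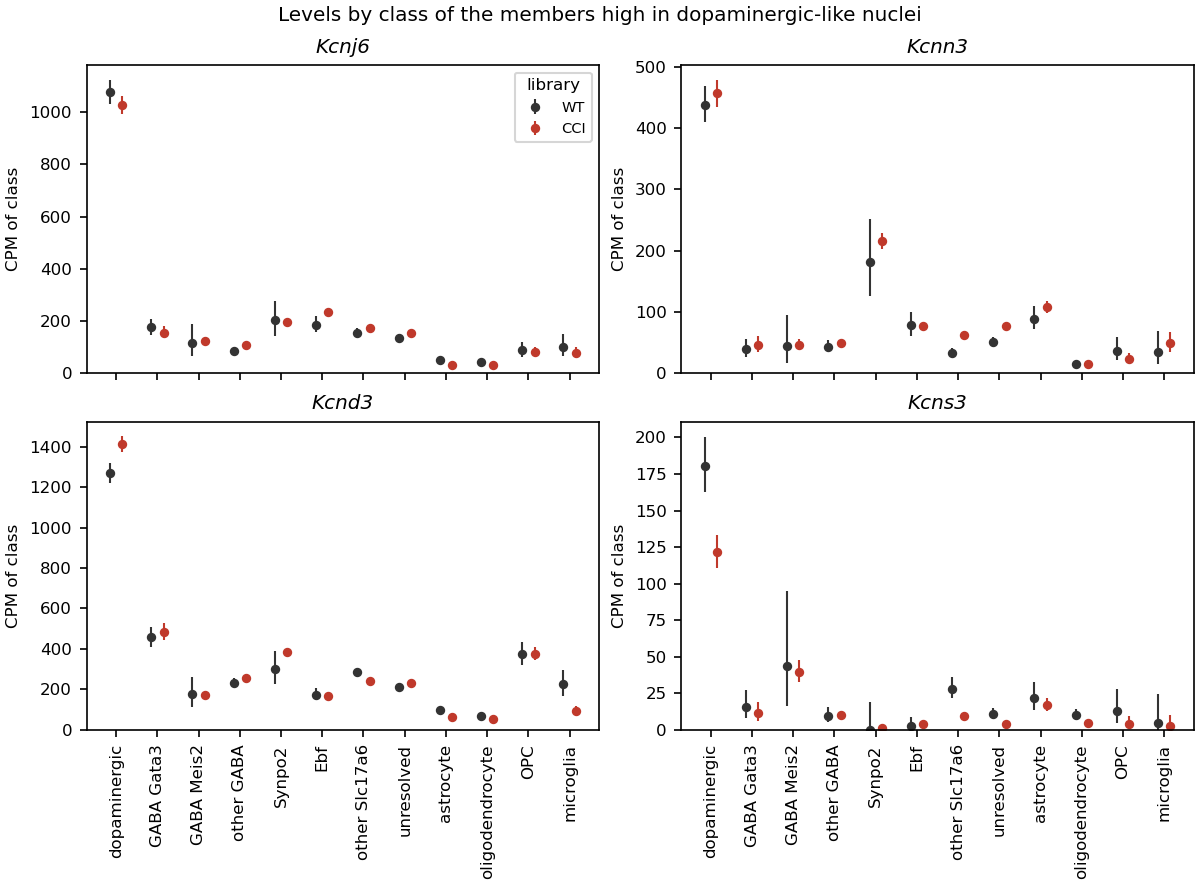
CPM of Kcnj6, Kcnn3, Kcnd3 and Kcns3 in 12 classes of the WT (black) and CCI (red) library, with exact Poisson 95% intervals for counting error as bars. In both libraries each gene has its highest point in the dopaminergic class, with Kcnn3 next highest in the Synpo2 type at 181 and 216 CPM.

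Shares of nuclei with a UMI followed the same pattern once depth was matched. When each nucleus was thinned to 1000 UMIs, 56.6% of WT dopaminergic nuclei (429 of 758, exact binomial interval 53.0 to 60.2) and 52.4% of CCI ones (193 of 368, 47.2 to 57.6) held a Kcnj6 UMI, where the unthinned shares were 75.0% and 92.7%. In glia the thinned Kcnj6 shares ran from 3.55% (oligodendrocytes) to 9.43% (microglia) in WT and from 2.78% (astrocytes) to 9.04% (oligodendrocyte precursors) in CCI, so the dopaminergic shares lay well above the highest glial one. The highest shares in another named neuron class were 17.4% in WT (GABAergic Gata3, Tal1, Pax5 type) and 20.3% in CCI (Ebf type). The unthinned median depth was 2122 and 9171 UMIs in dopaminergic nuclei and 713 and 1916 in oligodendrocytes. Thinning left out the WT nuclei below 1000 UMIs, so that 758 of 843 dopaminergic nuclei and 535 of 3833 oligodendrocytes remained. For Kcnd3 the thinned dopaminergic shares were 67.3% in WT and 69.0% in CCI, and for Kcnn3 34.6% and 35.1%. The highest glial shares were 33.9% and 27.9% for Kcnd3, in oligodendrocyte precursors, and 8.87% and 9.83% for Kcnn3, in astrocytes. In other named neuron classes the highest were 34.1% and 38.8% for Kcnd3 (Gata3 type) and 14.6% and 14.7% for Kcnn3 (Synpo2 type). For Kcns3 the dopaminergic shares were 15.4% (12.9 to 18.2) and 10.3% (7.41 to 13.9), where the highest glial shares were 2.36% and 1.69%. Among other named neuron classes the Meis2, Pax6, Dlx type had the highest, at 4.69% and 3.32%.

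The bases before the start sites of Kcnj6, Kcnd3 and Kcnn3 are shown because these channel genes were high together. In the GENCODE annotation of mm10 the genes span chr16:94748636-94997701 (Kcnj6, minus strand), chr3:105452330-105674002 (Kcnd3, plus) and chr3:89520164-89675132 (Kcnn3, plus), and Kcns3 spans chr12:11090202-11151056 (minus). Exons of Kcnj6 and Kcnd3 overlap a gene on the other strand, and whether the counting used strand is not given in the sources used here. Each sequence is the 250 bases before the most upstream start site in the RefSeq table for GRCm38.p6, 5′ to 3′ on the strand of the gene, with CpG dinucleotides in capitals. The windows are chr16:94997697-94997946 for Kcnj6, chr3:105451640-105451889 for Kcnd3 and chr3:89519914-89520163 for Kcnn3.
Kcnj6: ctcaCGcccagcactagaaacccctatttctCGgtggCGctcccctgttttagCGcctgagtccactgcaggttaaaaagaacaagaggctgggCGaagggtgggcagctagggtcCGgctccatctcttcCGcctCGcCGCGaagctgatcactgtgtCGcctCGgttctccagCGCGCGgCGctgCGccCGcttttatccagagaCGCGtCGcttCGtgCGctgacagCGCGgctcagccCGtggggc
Kcnd3: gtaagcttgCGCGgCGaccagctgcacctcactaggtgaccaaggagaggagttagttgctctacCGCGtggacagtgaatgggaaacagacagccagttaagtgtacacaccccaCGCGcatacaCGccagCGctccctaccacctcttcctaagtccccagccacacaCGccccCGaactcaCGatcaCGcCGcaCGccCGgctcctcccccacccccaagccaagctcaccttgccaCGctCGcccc
Kcnn3: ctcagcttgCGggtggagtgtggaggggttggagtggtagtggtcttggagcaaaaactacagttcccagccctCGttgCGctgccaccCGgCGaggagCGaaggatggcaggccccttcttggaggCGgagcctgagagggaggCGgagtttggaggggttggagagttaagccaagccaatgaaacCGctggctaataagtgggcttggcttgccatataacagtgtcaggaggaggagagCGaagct

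The windows of Kcnj6 and Kcnd3 were rich in CpG, with 26 and 18, and that of Kcnn3 held 10. The median over 27025 promoters of this length was 6, and 10 over the 53 members that the table holds. Neither TAATCC nor AAAGGTCA, searched on both strands, occurred in any of the 3 windows. TAATCC, a core read by homeodomain factors of the Pitx kind, occurred in 6.37% of all promoters, and AAAGGTCA, the element read by single Nr4a receptors, in 1.31%. No match says only that these letters are not in this window.

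What dopaminergic nuclei lacked was as distinct as what they held. Of 43 members with enough expected UMIs, 16 were at most 0.5 times the level in the other nuclei in both libraries, against 10.4% of 9667 genes. Against the other neurons alone 17 of 44 were low, where 5.90% of 9477 genes were, and 5 of 40 were high (4.44% of 9226 genes). Kcnip3, a calcium-binding partner of Kcnd channels, took the place of Kcng3 in that comparison, at 2.80-fold and 2.43-fold. Kcnj3, the usual partner of Kcnj6 in forebrain neurons, was at 64.5 CPM in WT dopaminergic nuclei and 67.7 CPM in CCI ones, 0.188 and 0.205 times the other neurons. Kcnj9, a further G-protein-gated subunit, was at 0.171 and 0.204 times, and Kcnj5, the last of the 4, did not exceed 7.81 CPM in any of the 12 classes. Within that family Kcnj6 alone was therefore high in dopaminergic nuclei while the partners were low.

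The Kcnd family was divided in the same way. Kcnd2 had 690 CPM (WT) and 785 CPM (CCI), 0.364 and 0.389 times the other neurons, where Kcnd3 was 5.04 and 5.80 times. Among other families several members were low. Kcnc1, a fast delayed rectifier of fast-spiking cells, was at 0.187 and 0.210 times the other neurons, Kcna1 at 0.228 and 0.184 times, and Kcnk3, an acid-sensitive leak channel, at 0.0694 and 0.127 times. Kcnh7, of the erg group that is active in slow repolarization, was at 0.151 and 0.194 times, Kcnip1 at 0.0891 and 0.176 times, and Kcnq5, an M-current subunit, at 0.359 and 0.341 times. Kcnb2, Kcnq3 and Kcnma1 stood within 2-fold of the rest. Kcnb2 was at 755 and 814 CPM, Kcnq3 at 815 and 800 CPM and Kcnma1, the large-conductance calcium-activated channel, at 1063 and 1080 CPM.

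GABAergic nuclei showed few high members. The Gata3, Tal1, Pax5 type (358 WT and 139 CCI nuclei) had 2 of 30, Kcnip1 and Kcnc1, against 1.91% of 5911 genes. All 5 of its markers were above the other nuclei in WT and 4 of 5 in CCI. Its subclusters were led by Pax5, while Gata3 was a leading gene of subclusters 12 and 20, which lay among the other GABAergic nuclei. Kcnip1 was at 396 CPM in WT (352 to 443) and 491 CPM in CCI (452 to 533), and Kcnc1 at 207 CPM (176 to 242) and 238 CPM (211 to 268). Against other neurons alone neither reached 2-fold in both libraries, and 0 of 30 members did, where 1.51% of genes did. In this type 9 of 35 members were low, against 7.13% of genes, among them Kcnk13 at 0.105 times the rest in each library. No member of the other GABAergic nuclei (0 of 42, 0.426% of genes) or of the Meis2, Pax6, Dlx type (0 of 14, 1.73% of genes) was high.

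The Synpo2, Lef1, Prkcd type, a Slc17a6 neuron with 84 WT and 498 CCI nuclei, had 6 high members of 17, against 12.2% of 1871 genes. Kcnip4, an auxiliary subunit of Kcnd channels, reached 21992 CPM in WT nuclei and 23313 CPM in CCI nuclei, 6.08-fold and 6.32-fold the rest. Because of it the summed level of the 77 members was 36157 and 38052 CPM here, where in every other compared class it stayed between 4769 and 14689 CPM. Kcnc2, a fast delayed rectifier, was at 2342 CPM (2131 to 2568) and 2502 CPM (2458 to 2547), or 5.996-fold and 6.13-fold. Kcnab1, Kcnj3, Kcnq3 and Kcnma1 followed at 2.08-fold to 2.77-fold in either library. Kcnj3 at 626 and 581 CPM made this type the highest for the gene that dopaminergic nuclei lacked. Exons of Kcnip4 and Kcnma1 overlap genes on the other strand, as do those of 24 of the 77 members in all.

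Among the remaining neurons, the other Slc17a6 neurons (878 WT and 898 CCI nuclei) had 4 high members of 49, against 1.06% of 9780 genes. They included the modifier subunit Kcng2 at 12.4 and 10.5 CPM, Kcnk12 at 15.7 and 16.2 CPM and Kcnip2 at 21.9 and 21.6 CPM. Kcnk12 was higher still in microglia, at 30.4 and 40.2 CPM, and Kcng2 in WT astrocytes, at 14.8 CPM. All were at 2.10-fold to 3.06-fold, and only 2 of the 4 passed under several other settings. The Ebf2, Ebf3, Lmx1a type had 0 of 35 (1.01% of genes). The small Sim1, Calcr type, with 34 WT and 231 CCI nuclei, had 2 of 8 (6.12% of genes). These were Kcnip1 at 492 and 645 CPM and Kcnb2 at 1371 and 1566 CPM. Unresolved neurons had 0 of 48 (0.257% of genes).

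Of the 77 members, 30 were high in at least 1 class and 3 in more than 1, and 47 were high in none, including the 11 sparse ones. No such count was made over all genes, so these numbers only account for the members. Broadly held members spanned a wide range of levels across the neuron classes all the same. Kcnq5 was highest in the Ebf type in both libraries, at 910 and 848 CPM. Kcna4, an A-type channel of the Kcna family, was highest in the Synpo2 type in both, at 87.9 and 68.3 CPM. Kcnj11, the pore of the ATP-sensitive channel, stayed at or below 7.27 CPM and Kcnn1 at or below 14.5 CPM in every compared class.

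Astrocytes, oligodendrocytes and their precursors carried differing sets. Pan-neuronal marker transcripts reached 2765 to 3815 CPM in astrocytes, oligodendrocytes and their precursors, 0.121 to 0.18 times the level in neurons. This ratio served as a rough guide to stray neuronal RNA there, and the source of these transcripts was not tested. The high members named below exceeded the level that this ratio would give by at least 13.0-fold in both libraries. They were chosen for being at least 2-fold over the other nuclei, neurons among them. A large excess therefore follows mostly from that choice and is no separate check on stray RNA. Oligodendrocytes (3833 WT and 3695 CCI nuclei) had 4 high members of 41, against 12.3% of 10095 genes, and 39 low members of 47, against 24.5% of 11180 genes. Kcnk13, a tandem-pore channel, was at 212 CPM in WT (196 to 229) and 269 CPM in CCI (258 to 281), 8.70-fold and 10.6-fold the rest. Kcna1, known from the axon beside the node of Ranvier, was at 208 CPM (192 to 225) and 254 CPM (243 to 266), or 4.84-fold and 6.75-fold. Kcna6 was at 150 and 159 CPM, and the inward rectifier Kcnj2 at 26.5 and 12.3 CPM.

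These genes did not vary in step among the oligodendrocyte clusters. Kcnk13 was highest in cluster 5, with 310 CPM (WT) and 328 CPM (CCI), where Kcna1 was lowest among clusters of at least 20 nuclei, at 103 and 159 CPM. In cluster 15 the order was turned, with Kcnk13 at 82.9 and 77.0 CPM and Kcna1 at 240 and 370 CPM. The large clusters 2 and 3, the first mostly WT and the second mostly CCI, lay between for Kcnk13, with 212 to 274 CPM. A cluster drawn mostly from 1 library may reflect that library and not a type of cell. After thinning to 1000 UMIs, 16.1% of 535 WT and 22.3% of 3580 CCI oligodendrocytes held a Kcnk13 UMI, against 0.493% and 1.36% of astrocytes. Unthinned shares were 14.3% and 37.6%.

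The sequence before the Kcnk13 start site (chr12:99964249-99964498, plus strand) is shown with that of Kcnh8, the member with the highest fold in oligodendrocyte precursors (chr17:52602459-52602708, plus), in the same format.
Kcnk13: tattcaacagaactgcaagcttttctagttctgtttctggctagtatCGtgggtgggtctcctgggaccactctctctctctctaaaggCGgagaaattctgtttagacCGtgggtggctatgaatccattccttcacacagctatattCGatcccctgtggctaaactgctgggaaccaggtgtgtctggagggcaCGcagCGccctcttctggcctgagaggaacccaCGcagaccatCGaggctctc
Kcnh8: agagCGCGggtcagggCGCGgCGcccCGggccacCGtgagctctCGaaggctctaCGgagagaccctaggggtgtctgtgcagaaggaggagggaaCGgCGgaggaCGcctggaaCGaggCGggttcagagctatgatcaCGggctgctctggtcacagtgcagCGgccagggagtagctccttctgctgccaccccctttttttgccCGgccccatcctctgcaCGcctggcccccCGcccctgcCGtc

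The Kcnk13 window held 8 CpG and the Kcnh8 window 20. ACAAAG, the core read by Sox factors, was in neither on either strand, and was in 16.5% of all 27025 promoters.

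Oligodendrocyte precursors (548 WT and 387 CCI nuclei) had 5 high members of 23, against 9.52% of 4105 genes. Kcnh8, a voltage-gated channel of the elk group, was at 301 CPM in WT (253 to 355) and 397 CPM in CCI (364 to 433), 14.9-fold and 16.8-fold the rest. In no other compared class did it exceed 41.4 CPM. Kcnip3 was at 374 CPM (320 to 433) and 455 CPM (419 to 494), 12.6-fold and 12.8-fold. Kcnh5, of the ether-a-go-go group, was at 194 and 233 CPM, and the leak channel Kcnk10 at 233 and 211 CPM. Kcnd2 was at 4453 and 4654 CPM, 2.74-fold and 2.47-fold. Both Kcnd2 and its partner Kcnip3 were thus high in these cells while Kcnip4 was low, at 0.273 and 0.219 times the rest. Kcnip1, not called high here, was at 382 and 412 CPM. In all 7 of 29 members were low, against 10.5% of 4377 genes.

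Astrocytes (1270 WT and 1488 CCI nuclei) had 5 high members of 31, against 13.6% of 6844 genes, so their share was near that of all genes. Kcnd2 was at 4696 CPM (WT) and 4423 CPM (CCI), level with the precursors. Kcnn2, a small-conductance calcium-activated channel, was at 930 CPM (872 to 991) and 674 CPM (648 to 701), 3.69-fold and 2.64-fold the rest. Kcnk1, a leak channel of astrocytes, was at 113 CPM (93.4 to 136) and 73.0 CPM (64.7 to 82.2), Kcnip3 at 114 and 138 CPM and Kcnc4 at 31.5 and 36.8 CPM. Of 36 members tested, 22 were low, against 19.7% of 7182 genes. Exons of Kcnn2 and Kcnk1 overlap a gene on the other strand.

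**Figure D3:**
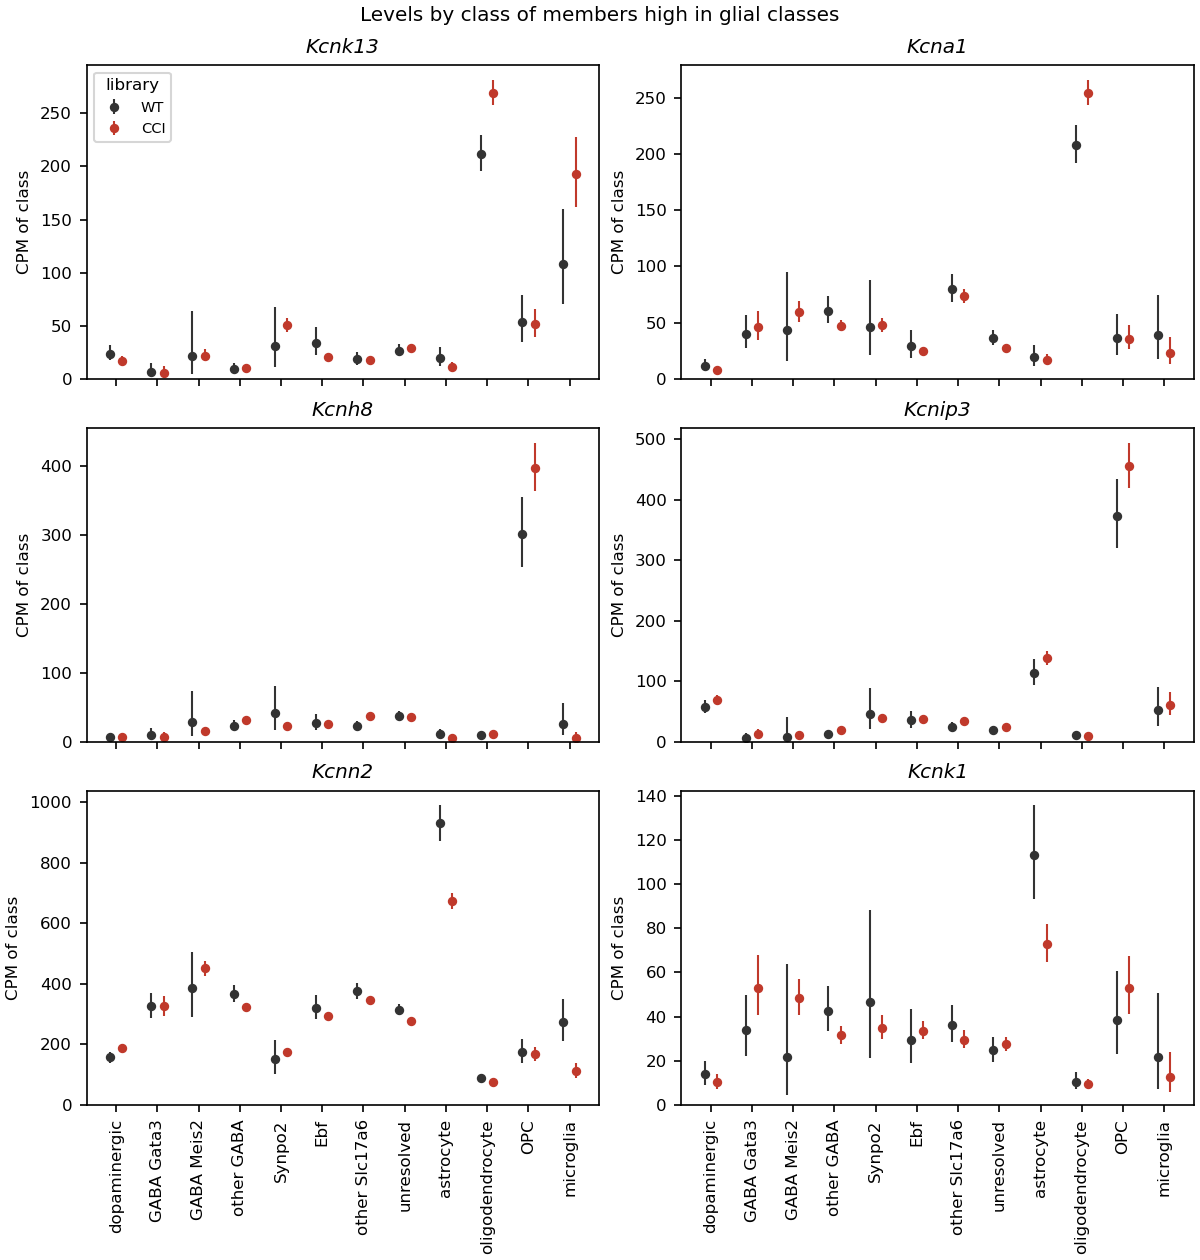
CPM of Kcnk13, Kcna1, Kcnh8, Kcnip3, Kcnn2 and Kcnk1 in 12 classes of the WT (black) and CCI (red) library, with exact Poisson 95% intervals for counting error. Kcnk13 and Kcna1 peak in oligodendrocytes, Kcnh8 and Kcnip3 in oligodendrocyte precursors (OPC), Kcnn2 and Kcnk1 in astrocytes, and Kcnk13 has a further high point in microglia at 109 and 193 CPM.

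Microglia (247 WT and 407 CCI nuclei) had 0 high members of 17, against 13.1% of 2640 genes. Neuronal marker transcripts were abundant there, with 10991 CPM (WT) and 7081 CPM (CCI), 0.519 and 0.309 times the level in neurons, and their part in the member levels was not tested. The following genes fell outside the rule and were chosen after their values were seen. Kcnk6, a tandem-pore channel, had 12 UMIs in WT microglia (52.1 CPM, 26.9 to 91.1) and 50 in CCI (69.3 CPM, 51.5 to 91.4), and the highest level in another compared class was 2.17 CPM. In fibroblasts, Kcnk2, a mechanically gated leak channel, was at 564 CPM (300 to 965, 13 UMIs in 27 nuclei) and 823 CPM (674 to 995, 106 UMIs in 54 nuclei). Kcnj12 in committed oligodendrocyte precursors was at 59.8 CPM (15 UMIs) and 53.0 CPM (6 UMIs).

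The comparison of CCI with WT asked whether channel levels within a class differed between the mice with nerve injury and the mice without. A member was measured in a class when about 20 UMIs were expected in the shallower library, which gave 383 pairs of a member and a class over 12 classes. A difference past 1.5-fold was called. Of the 383 pairs 37 were higher in CCI (9.66%, where 6.53% of 78440 pairs of all genes were) and 25 were lower (6.53%, where 5.07% were). Of 53 members measured in some class, 17 passed 1.5-fold in none, a count that was not made over all genes. These classes share their libraries, so the same gene in several classes is not several replicates.

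**Figure D4:**
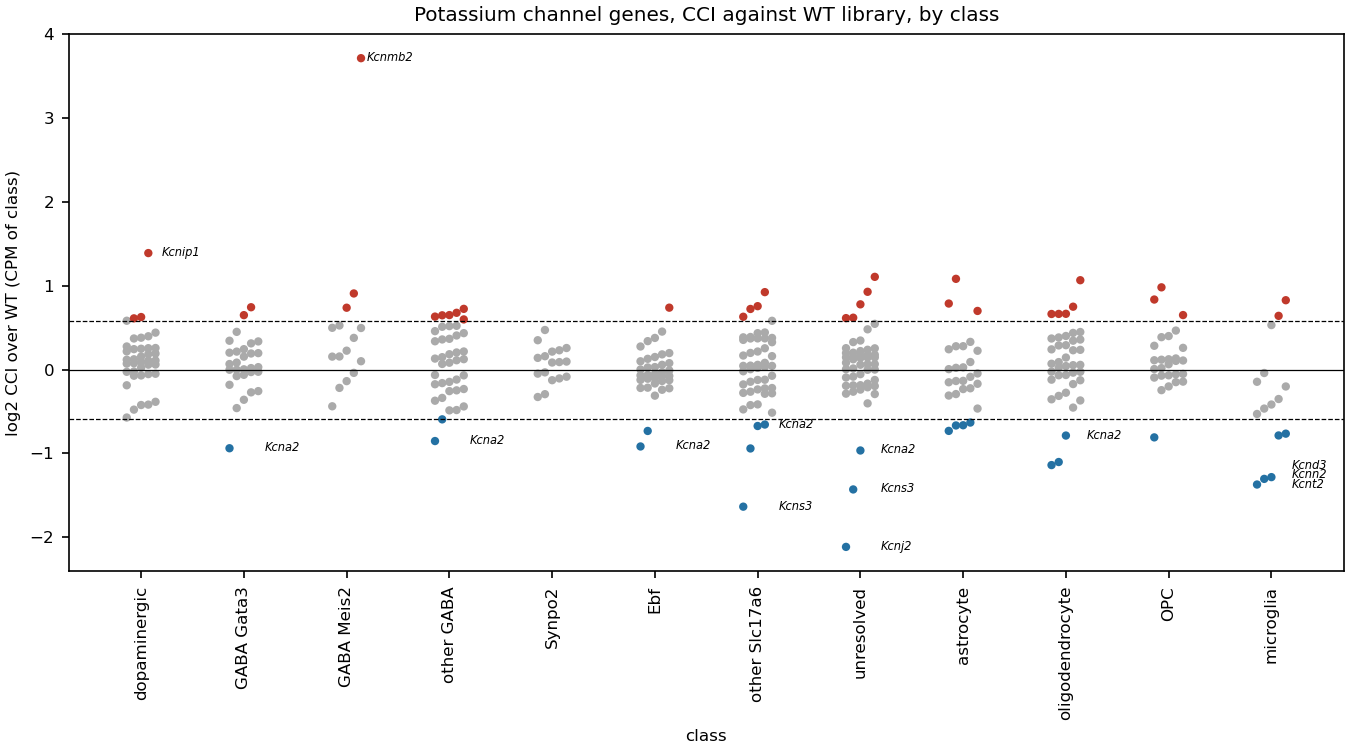
log2 ratio of CCI over WT for each measured member in 12 classes, with 1 point per member. Red points are past 1.5-fold higher in CCI and blue points past 1.5-fold lower (dashed lines), and names mark members beyond 1.2 on the log2 scale and Kcna2 where it is past 1.5-fold lower.

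In dopaminergic nuclei 3 of 39 members were higher in CCI, against 6.17% of 9281 genes, and 0 were lower, against 4.22%. With the CCI nuclei pooled, Kcnj6, Kcnd3 and Kcnn3 differed little from WT, though the CCI subclusters given below lay on either side of WT. The log2 ratio for Kcnj6 was -0.07 (-0.15 to 0.01), for Kcnd3 0.16 (0.09 to 0.23) and for Kcnn3 0.06 (-0.06 to 0.18). Kcns3 was at -0.57 (-0.78 to -0.37), just inside the threshold. The 3 higher members were Kcnip1 with a log2 ratio of 1.39 (0.87 to 1.94), from 18.8 to 49.2 CPM, Kcnh7 with 0.63 (0.37 to 0.89), from 86.3 to 133 CPM, and Kcnh1, of the ether-a-go-go group, with 0.61 (0.08 to 1.16), from 20.8 to 31.8 CPM.

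All 3 of those rested on 134 CCI nuclei. The 843 WT dopaminergic nuclei lay in neuron subcluster 1, and the CCI nuclei were divided into 134 in subcluster 1 and 234 in subcluster 15, which held no WT nucleus. Kcnip1 was at 18.8 CPM in the WT nuclei (13.2 to 25.9), 135 CPM in the CCI nuclei of subcluster 1 (114 to 159) and 13.3 CPM in those of subcluster 15 (9.24 to 18.6). Kcnh7 was at 86.3, 351 and 42.0 CPM in the same order, and Kcnh1 at 20.8, 90.8 and 7.07 CPM.

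The marking genes went the other way. Kcns3 was at 181 CPM in WT, 33.7 CPM in CCI nuclei of subcluster 1 and 159 CPM in subcluster 15. Kcnj6 was at 1079, 445 and 1272 CPM, Kcnd3 at 1269, 867 and 1642 CPM, and Kcnn3 at 439, 266 and 537 CPM. Both CCI subclusters carried dopaminergic markers: Slc6a3, the dopamine transporter, was at 650 CPM in WT, 427 CPM in CCI subcluster 1 and 744 CPM in subcluster 15. Against subcluster 15 alone the log2 ratios of Kcnip1, Kcnh7 and Kcnh1 turned to -0.49, -1.04 and -1.56, so their direction depends on which CCI nuclei stand for the class.

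**Figure D5:**
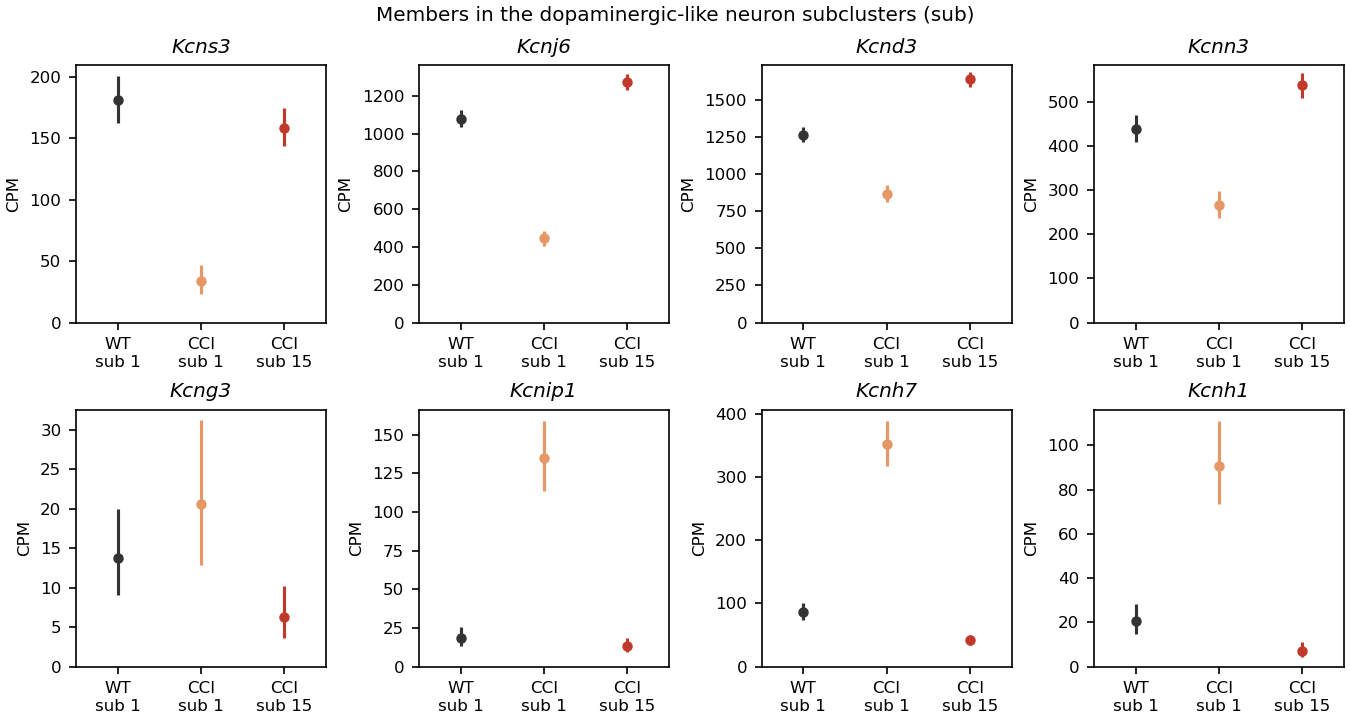
CPM of 8 members in the dopaminergic nuclei of WT subcluster 1, CCI subcluster 1 and CCI subcluster 15, with exact Poisson 95% intervals for counting error. CCI subcluster 1 is lowest for Kcns3, Kcnj6, Kcnd3 and Kcnn3 and highest for Kcnip1, Kcnh7 and Kcnh1, and CCI subcluster 15 lies nearer to WT than CCI subcluster 1 does for each of these genes.

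Kcna2, a fast-opening low-threshold channel of axons, was the member lower in the largest number of classes. It was past 1.5-fold lower in 6 of the 8 classes where it was measured, and below WT in all 8. The log2 ratios were -0.94 (-1.503 to -0.38) in the Gata3 type, -0.85 (-1.16 to -0.54) in other GABAergic nuclei, -0.92 (-1.39 to -0.41) in the Ebf type and -0.66 (-0.91 to -0.39) in other Slc17a6 neurons. They were -0.96 (-1.23 to -0.69) in unresolved neurons and -0.79 (-1.10 to -0.47) in oligodendrocytes. In astrocytes Kcna2 was at 34.4 CPM (WT) and 33.3 CPM (CCI). Summed myelin transcripts were lower in CCI in the same classes, from 1041 to 315 CPM in other GABAergic nuclei for example, and the part of this in the Kcna2 difference was not tested. With nuclei thinned to 1000 UMIs the ratio was -0.27 in the Gata3 type and -0.35 in the Ebf type, and with equal weight for shared clusters -0.58 in oligodendrocytes. At a stricter minimum of 100 expected UMIs 3 classes were past 1.5-fold, and at 2-fold 0 were.

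Kcnip1, whose product sets the speed of Kcnd channels, was above WT in all 10 classes where it was measured and past 1.5-fold in 5. Apart from dopaminergic nuclei these were other GABAergic nuclei at 0.65 (0.50 to 0.81), unresolved neurons at 0.62 (0.49 to 0.75), astrocytes at 1.08 (0.54 to 1.67) and oligodendrocytes at 1.07 (0.69 to 1.46). In clusters with at least 20 nuclei in both libraries the value in other GABAergic nuclei was 0.36, and in unresolved neurons it was 0.46 when Kcn genes entered the clustering. In both glial classes its level was low, from 30.5 to 64.6 CPM and from 22.5 to 47.0 CPM. In the astrocyte cluster that was mostly WT it was at 32.4 and 49.1 CPM, from 29 WT and 10 CCI UMIs. In the cluster that was mostly CCI it was at 16.6 and 65.5 CPM, from 2 and 234 UMIs.

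The Meis2, Pax6, Dlx type had 3 of 15 members higher, against 6.08% of 1315 genes, and 0 lower, against 8.82%. Kcnmb2, an auxiliary subunit that inactivates the Kcnma1 channel, had 8 UMIs in WT (58.2 CPM) and 2174 in CCI (763 CPM), a log2 ratio of 3.71 (2.73 to 4.93). Kcnma1 was at 0.91 (0.65 to 1.18) and Kcnh7 at 0.74 (0.36 to 1.14). Of the CCI nuclei, 132 formed subcluster 24, in which there was no WT nucleus, and there Kcnmb2 was at 1592 CPM, Kcnma1 at 3118 CPM and Sst, the somatostatin gene, at 271 CPM. Subcluster 24 nearly lacked Pax6, at 4.27 CPM against 153 CPM in the CCI nuclei of subcluster 11. Meis2 was at 749 and 768 CPM in the same order, and the Dlx genes and Six3 were no lower in subcluster 24. Npy, a neuropeptide gene, was at 75.8 and 2.61 CPM. In subcluster 11, the only one with nuclei of both libraries, Kcnmb2 was at 58.2 CPM in 73 WT nuclei and 357 CPM in 260 CCI nuclei, and Kcnma1 at 880 and 932 CPM. Sst was at 196 and 117 CPM there. With subcluster 11 alone the log2 ratio was 2.62 for Kcnmb2, 0.08 for Kcnma1 and 0.48 for Kcnh7.

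Counts in the other neuron classes ranged from none to 6. The Gata3 type had 2 of 29 higher and 1 lower (6.59% and 5.34% of 5996 genes), and the other GABAergic nuclei 6 and 2 of 40 (6.75% and 3.65% of 8957 genes). The Ebf type had 1 and 2 of 35 (4.09% and 2.68%), the other Slc17a6 neurons 4 and 4 of 49 (7.67% and 5.53%), and unresolved neurons 5 and 3 of 50 (5.49% and 5.04%). In the Synpo2 type none of 17 members passed 1.5-fold either way, where 3.03% and 5.05% of 1783 genes did, with ratios from -0.33 to 0.47. The largest differences in the remaining neurons were Kcnj2 in unresolved neurons at -2.11 (-2.80 to -1.44), from 44 to 34 UMIs, and Kcns3 in other Slc17a6 neurons at -1.63 (-2.17 to -1.10). With doublets kept Kcnj2 was at -1.20, while Kcns3 turned to 0.23, and Kcns3 was at -0.14 when the clusters shared by both libraries weighed equally. In the same neurons Kcnn3 was higher at 0.92 (0.55 to 1.31), or 0.16 with doublets kept. In other GABAergic nuclei the leak channel gene Kcnk2 was at 0.68 (0.36 to 1.01), or 0.55 in clusters with at least 20 nuclei in both libraries. The subclusters of these classes were filled unequally. In unresolved neurons subcluster 0 held 1971 WT and 910 CCI nuclei and subcluster 4 held 43 and 499. Subcluster 4 was led by Pmch and Hcrt, the melanin-concentrating hormone and orexin genes, and so came mostly from CCI. Subcluster 14, with 86 and 152 nuclei, was led by haemoglobin genes and scored highest for oligodendrocyte markers. The ratios of this class thus compare unlike mixtures of nuclei, and the part of this in them was not tested. Among other Slc17a6 neurons subcluster 17 held 28 and 196 nuclei and subcluster 30 held 0 and 65, and among other GABAergic nuclei subcluster 25 held 4 and 118 and subcluster 27 held 2 and 91.

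Oligodendrocytes had 5 of 40 members higher and 3 lower in CCI, against 6.84% and 4.27% of 10193 genes. Of their own set, Kcnk13 and Kcna1 stayed inside 1.5-fold, at log2 ratios of 0.34 and 0.29, and Kcnj2 was lower at -1.10 (-1.55 to -0.65). Kcnab1, an auxiliary subunit of Kcna channels, was higher at 0.66 (0.55 to 0.78), from 254 to 403 CPM, or 0.55 in clusters with at least 20 nuclei in both libraries. Oligodendrocyte precursors had 3 and 1 of 27 (4.38% and 5.12% of 4041 genes), among them Kcna6 at 0.65 (-0.13 to 1.51) and Kcnc1 at -0.81 (-1.48 to -0.12). With thinning these were at 0.27 and -0.33. Their own Kcnh8 and Kcnip3 were at 0.40 and 0.28.

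Astrocytes had 3 of 27 higher and 4 lower, against 6.32% and 5.51% of 6866 genes. Kcnt1, a sodium-activated channel, was higher at 0.79 (0.47 to 1.12). Kcnk1 was lower at -0.63 (-0.95 to -0.30), and Kcnj6, Kcnd3 and Kcnc1 were lower at -0.73, -0.66 and -0.67. Thinning gave -0.41 for Kcnk1, and keeping doublets gave -0.36 for Kcnj6 and -0.56 for Kcnd3. Microglia had 2 higher and 5 lower of 15, against 18.4% and 16.6% of 2602 genes. The lower ones were Kcnt2, Kcnn2, Kcnd3, Kcnq5 and Kcnb2, at -1.37 to -0.76. Neuronal marker transcripts were lower in CCI microglia too, as given above, and their part was not tested. Kcnq5, for example, was at 621 CPM in WT microglia, above the 559 CPM of WT unresolved neurons, and at 361 CPM in CCI microglia. Kcnk13, which microglia also held, was at 109 CPM (WT) and 193 CPM (CCI), or 0.83 (0.21 to 1.504). With doublets kept the log2 ratios were 0.38 for Kcnk13, -0.50 for Kcnn2 and -0.33 for Kcnb2.

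Genes that work with these channels but lie outside the symbol rule were compared in the same classes. Of 26 partner proteins, such as Dpp6 and Dpp10 of Kcnd channels and Cntnap2 of the juxtaparanode, 171 pairs were measured, and 4 were past 1.5-fold higher (2.34%) and 8 lower (4.68%), where 6.53% and 5.07% of all gene pairs were. Of these 8, 5 were in microglia, among them Dpp10 at -0.95. Of 11 pumps and cotransporters, 96 pairs were measured, with 0 higher and 15 lower (15.6%), against the same shares of all genes. Of these 15, 4 were in microglia, where 16.6% of all genes were lower. Slc12a2, a cotransporter that brings sodium, potassium and chloride into the cell, was lower in astrocytes at -1.30 (-1.55 to -1.05), in unresolved neurons at -0.71, in the Ebf type at -0.68 and in other Slc17a6 neurons at -0.61. Atp1b3, a sodium pump subunit, was lower in 4 classes, at -0.71 to -0.59.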

How the data were processed

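The deposited values are UMI counts per gene and nucleus, made by the authors with Cell Ranger 7.1.0 per the file headers on the mm10 build, and Seurat is named without settings in the submitters' processing notes. The series describes nuclei, while the extraction text in the labels describes an enzymatic dissociation. Members and gene lists were chosen with earlier results of these data known, and the rule that names clusters was set after their marker tables were seen. Nuclei needed 200 genes, 500 UMIs and at most 20% mitochondrial UMIs, and 1235 WT and 911 CCI doublets called by Scrublet (scanpy 1.11.5, expected rate 10%) were removed. Clusters came from 2000 variable genes without Kcn genes, 30 principal components, 20 neighbours and Leiden resolution 1.0, and neurons were clustered again. Within each library the counts of a class were added up and scaled by the class total (CPM). Intervals are exact Poisson, exact binomial (Clopper-Pearson) or exact conditional 95% intervals for a ratio, and cover counting error only. Members at least 2-fold over other nuclei in both libraries are named, with the measured CCI to WT differences past 1.5-fold nearest the extremes and a list of well-known channels. The ratio step was checked on simulated counts. Gene positions come from GENCODE vM21 and promoters from RefSeq. Results for some members are not reported here.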

Additional observations from a re-analysis of the deposited data

Results flagged for a closer look

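For 3 members the CCI to WT difference had opposite signs in different classes, each past 1.5-fold with a counting interval on its own side of 0. The differences between classes were not tested, since each group has 1 library. Kcnc2, a fast delayed rectifier, was higher in CCI in microglia at a log2 ratio of 0.64 and lower in other Slc17a6 neurons at -0.67, and the microglial value turned to -0.50 when nuclei were thinned to 1000 UMIs. With doublets kept the neuronal value was -0.15. Kcnk13, a tandem-pore channel, was higher in microglia at 0.83 and lower in the Ebf type at -0.73, and with doublets kept the microglial value was 0.38. Kcnmb2, the inactivating partner of Kcnma1, was higher in the Meis2, Pax6, Dlx type at 3.71 and in oligodendrocytes at 0.75, and lower in other GABAergic neurons at -0.59, or -0.44 in clusters with at least 20 nuclei in both libraries.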

How the results depend on the processing

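No paired analysis was possible because each group has 1 library. Of the values for single genes, 778 were within the counting interval of their first value under the other settings, 145 were outside it and 8 changed sign. The 778 include values that could not move, because the setting changed only a threshold or filter. These were 13 at 2-fold, 62 with no filter but 1 UMI and 19 at 100 expected UMIs. Each way of rescaling the class total also left 62 within, so the tally overstates how stable the values were. The counts and percentages given for classes were within 1.5 times in 75 cases and outside in 21. A call at 4-fold in place of 2-fold left 0 high members in the Gata3 type, 2 in the Synpo2 type, 0 in other Slc17a6 neurons, 0 in astrocytes, 2 in oligodendrocytes and 2 in their precursors. Thinning to 1000 UMIs left 1 in the Gata3 type, 2 in other Slc17a6 neurons and 3 in astrocytes. In other Slc17a6 neurons the count was also 2 with a stricter nucleus filter, with doublets kept, at Leiden resolution 0.5 or 2.0 and with Kcn genes in the clustering. With no filter but 1 UMI in each library 16.1% of member and class pairs were higher in CCI and 17.8% lower. At a minimum of 100 expected UMIs 6.81% were higher, 3.14% were lower and Kcna2 passed in 3 classes. At 2-fold 1.31% were higher, 2.09% were lower and Kcna2 passed in 0 classes. Signs changed for Kcnab2 in the Gata3 type (-0.24) and Kcnc2 in microglia (-0.50) with thinning, and for Kcnj9 (-0.042) and Kcns3 (0.23) in other Slc17a6 neurons with doublets kept. The cause was not tested. Settings chosen after seeing the data were subcluster 15 as the only dopaminergic CCI nuclei, with Kcnip1 at -0.49, Kcnh7 at -1.04 and Kcnh1 at -1.56, and only clusters with 20 nuclei in both libraries, with Kcnip3 at -0.010 in other GABAergic neurons. In that last setting 11.2% of pairs were higher and 7.71% lower. For all genes, neither the counts of high genes nor these shares were computed under the other settings. WT depth limits the rest: 11 members had under 20 UMIs in kept WT nuclei.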

Other observations

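Classes with under 50 nuclei in a library were not compared between WT and CCI, and their values were chosen after they were seen. In fibroblasts Kcnt2, a sodium-activated channel, had 8 UMIs in WT (347 CPM, interval 150 to 684) and 81 UMIs in CCI (629 CPM, 499 to 781). Kcnj8, the vascular ATP-sensitive channel that fell below the minimum of 50 UMIs, had 10 UMIs in CCI mural nuclei (90.8 CPM) and 10 in CCI endothelial nuclei (71.8 CPM), out of 32 in all kept CCI nuclei. The kept WT nuclei held 2, of which 1 was in endothelial nuclei.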
